A study of Rattus norvegicus with 44 samples.

Results

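The genes described here encode the proteins of the mitochondrial ribosome in the dentate gyrus (DG) of young rats and of older rats given a senolytic drug or vehicle. Members were every gene of the deposited expression table whose symbol is Mrpl or Mrps followed by a number, with the table rows of a gene summed and a mean normalized value of at least 5 over the 44 rats. The table holds 73 such genes, and 72 of them passed, out of 15598 genes tested and 18347 in the table. Mrpl53 did not pass, with a mean of 1.28 and a highest value of 28 in any rat. The symbols place 43 members in the large subunit (Mrpl) and 29 in the small subunit (Mrps). Mrpl11, which the rule for named genes also lists, was not analysed here.

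The study treated male Fischer 344 rats with senolytics through middle age and sequenced poly(A)-selected RNA from the DG of 1 hemisphere, 1 library per rat. Older rats received vehicle (AV, n = 12), ABT-263 at 12 mg/kg (AA, n = 11) or dasatinib at 1.2 mg/kg with quercetin at 12 mg/kg (ADQ, n = 11) by oral gavage, for 5 consecutive days in each of 8 cycles and in a final round after the behavioral tests. They were 12 months old at the start and about 18 months at collection, while the sample labels give 12 months. Young rats (YNG, n = 10) were 6 months old, and the authors' table of sample attributes lists them as given vehicle. That table is also the source of each older rat's treatment, since the labels give age alone. Every older group thus differs from YNG in age, and there is no young group given a drug.

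The mitochondrial ribosome translates the few messages encoded in mitochondrial DNA, all of which specify subunits of the respiratory chain and ATP synthase. All of its proteins are encoded in the nucleus, made on cytosolic ribosomes and imported. Compared with its bacterial relative it has lost ribosomal RNA and gained proteins that bacteria lack, so the members comprise counterparts of bacterial proteins and proteins particular to mitochondria. Neurons of the DG, as other neurons, draw on oxidative phosphorylation for much of their energy.

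Values are reads per gene divided by a size factor for each library. The estimated depth ran from 10166556 to 24328425 reads per rat, with a median of 16320203. The rats were divided here by number into series a (V1 to V6 and 3890 to 4011) and series b (V9 to V12 and 4031 to 4572). Which V numbers go with which numbers of older rats was set here and is not given in the sources. Every comparison with YNG by series rests on that pairing. The labels do not call these batches. There are 6 young, 6 AV, 5 AA and 5 ADQ animals in series a, against 4, 6, 6 and 6 in series b. Within series b the rats of AV carry the numbers 4566 to 4572, whereas those of AA and ADQ lie between 4031 and 4110, so a number block and the difference between AV and a treated group cannot be told apart there. Nothing in the sources states when or together with which others a rat was processed. For the member Mrpl14, 10 older rats of series a (4009 to 4011 in AV, 3983, 3984, 3985 and 3988 in AA, and 3994, 4004 and 4005 in ADQ) stood apart, at 790 to 1289 against 338 to 641 in the other 34 rats, all young ones included. They were taken as the rats of series a above every young rat for Mrpl14, so the rule itself kept young rats out. Results are therefore also given without these 10 rats, an alternative added after the data were seen. It removes older rats of series a only and keeps every young rat. Calls held or lost without the 10 rats therefore cannot be told apart from the changed share of series a in the older groups. Markers of dentate granule cells were present in every rat, with 5 of 7 listed genes tested and a mean log2 level from 10.38 to 11.13 in YNG, 9.88 to 11.19 in AV, 9.11 to 11.30 in AA and 10.64 to 11.08 in ADQ. Markers of CA1 (4 of 5 listed genes tested) ranged more widely between rats. Their mean level was 8.27 to 11.55 in YNG, 7.93 to 12.25 in AV, 8.1 to 12.92 in AA and 8.34 to 10.93 in ADQ. The part of the dissection in the levels of the members was not tested. In bulk tissue a lower share of a cell type and less RNA per cell cannot be told apart.

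The mean normalized value of a member over all rats ran from 48.3 for Mrpl33 to 953 for Mrpl17. These values were not divided by transcript length, so they do not rank the members against each other. Within the groups the members varied together from rat to rat. On the log2 scale, the deviations of a member from its group means had a median Pearson correlation of 0.73 with the mean deviation of the other members. The highest of these 72 correlations was 0.90. They are a description over 44 rats, whose libraries the members share. Mrpl51 (-0.39) and Mrpl33 (-0.06) were the 2 members with a correlation below 0. The spread of a member within groups ran from an SD of 0.11 (Mrps2) to 1.13 (Mrpl1) on the log2 scale, with a median of 0.28.

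The level of the whole set in a rat, taken as the mean of log2(value + 1) over the 72 members, was 8.15, 8.64 and 8.92 in YNG (lowest, median and highest rat). It was 8.20, 8.38 and 8.86 in AV, 8.20, 8.42 and 8.69 in AA, and 8.20, 8.46 and 8.76 in ADQ. The middle rat of each older group lay below the middle young rat, and the ranges of all 4 groups overlapped. The lowest rat of all was young (V11). Of the 11 rats with the highest level, 5 were YNG, 3 AV, 2 AA and 1 ADQ.

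**Figure D1:**
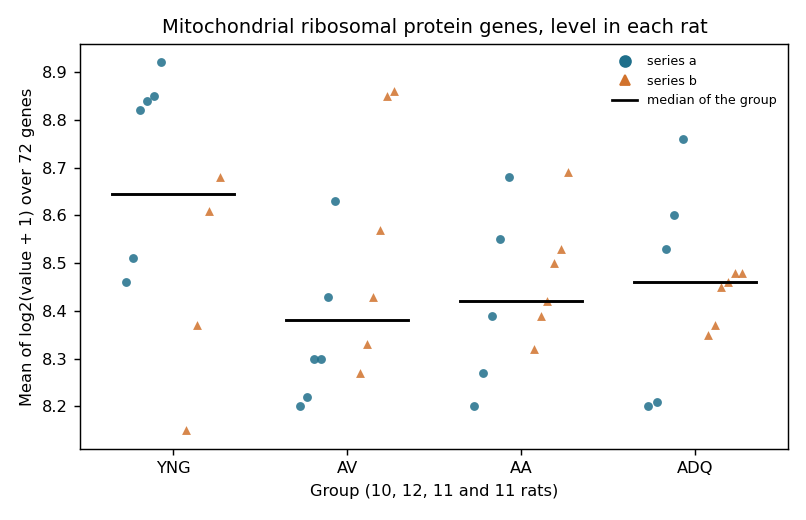
Each point is 1 rat, plotted by group on the x axis and by the mean of log2(value + 1) over the 72 members on the y axis, with circles for series a, triangles for series b and a line at the group median. The medians are 8.64 in YNG and 8.38, 8.42 and 8.46 in AV, AA and ADQ, and the points of all groups overlap.

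The young rats did not form a single cluster. V1, V2, V3 and V4 lay between 8.82 and 8.92, V9 and V12 at 8.68 and 8.61, V5 and V6 at 8.46 and 8.51, and V10 and V11 at 8.37 and 8.15. In AV, rats 4567 (8.86) and 4572 (8.85) lay above the other 10, of which the highest was 3989 at 8.63. The rats that were high for the members were largely those that were high for other translation and respiration genes. Of the 11 highest rats, 9 were also among the 11 highest for cytosolic ribosomal protein genes, 9 for nuclear genes of the respiratory chain and ATP synthase, and 7 for mitochondrially encoded genes. V10 and V11 also had the lowest estimated depth among the YNG rats, 10166556 and 11579449 reads, against 16214816 to 24328425 in the other 8. The part of depth in these levels was not tested.

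The first question of the design is how the older DG differed from the young DG. In AV, 23 of 72 members (31.9%) fell relative to YNG and 1 rose, by an unadjusted two-sided p below 0.05 in limma, the threshold of the study. Among all genes tested, 10.7% fell and 10.6% rose in this comparison. The median difference over the members was -0.169 on the log2 scale, against -0.00172 over all genes, and 64 of the 72 differences were below 0. With Benjamini-Hochberg adjustment over all genes tested, Mrpl16 alone remained (1.39% of members, against 2.35% of all genes in either direction). The count of 24 called members moved with single rats. It was 11 without V3, 13 without V1, V4 or 3999, 15 without V2 or V9, and 37 without V11. Without the 10 rats that stood apart for Mrpl14, 9 members were lower and 1 higher, where 5.74% of all genes were lower, and the median was -0.116.

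In AA, 26 members (36.1%) fell and 1 rose, where 14.1% of all genes fell and 12.6% rose. The median difference was -0.178, against 0.00067 over all genes, and 59 members lay below 0. Mrpl18, Mrpl13, Mrpl16, Mrps15 and Mrpl42 had an adjusted p below 0.05, all lower in AA, which is 6.94% of the members against 3.85% of all genes. Leaving out any single rat gave 20 to 34 called members. Without the 10 rats, 21 were lower and 1 higher, where 12.1% of all genes were lower, with a median of -0.187 and 0 members by the adjusted p.

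In ADQ, 27 members (37.5%) fell and 1 rose, where 14.6% of all genes fell and 13.5% rose. The median difference was -0.179, against 0.00566 over all genes, and 59 members lay below 0. Mrpl13, Mrpl45, Mrpl18 and Mrps18c were lower and Mrpl51 was higher by the adjusted p, together 6.94% of the members against 7.08% of all genes. Leaving out any single rat gave 19 to 37 called members. Without the 10 rats, 38 were lower and 1 higher, where 16.3% of all genes were lower, with a median of -0.24. The 3 comparisons share the same 10 YNG rats, so the likeness of their lists is not independent evidence.

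**Figure D2:**
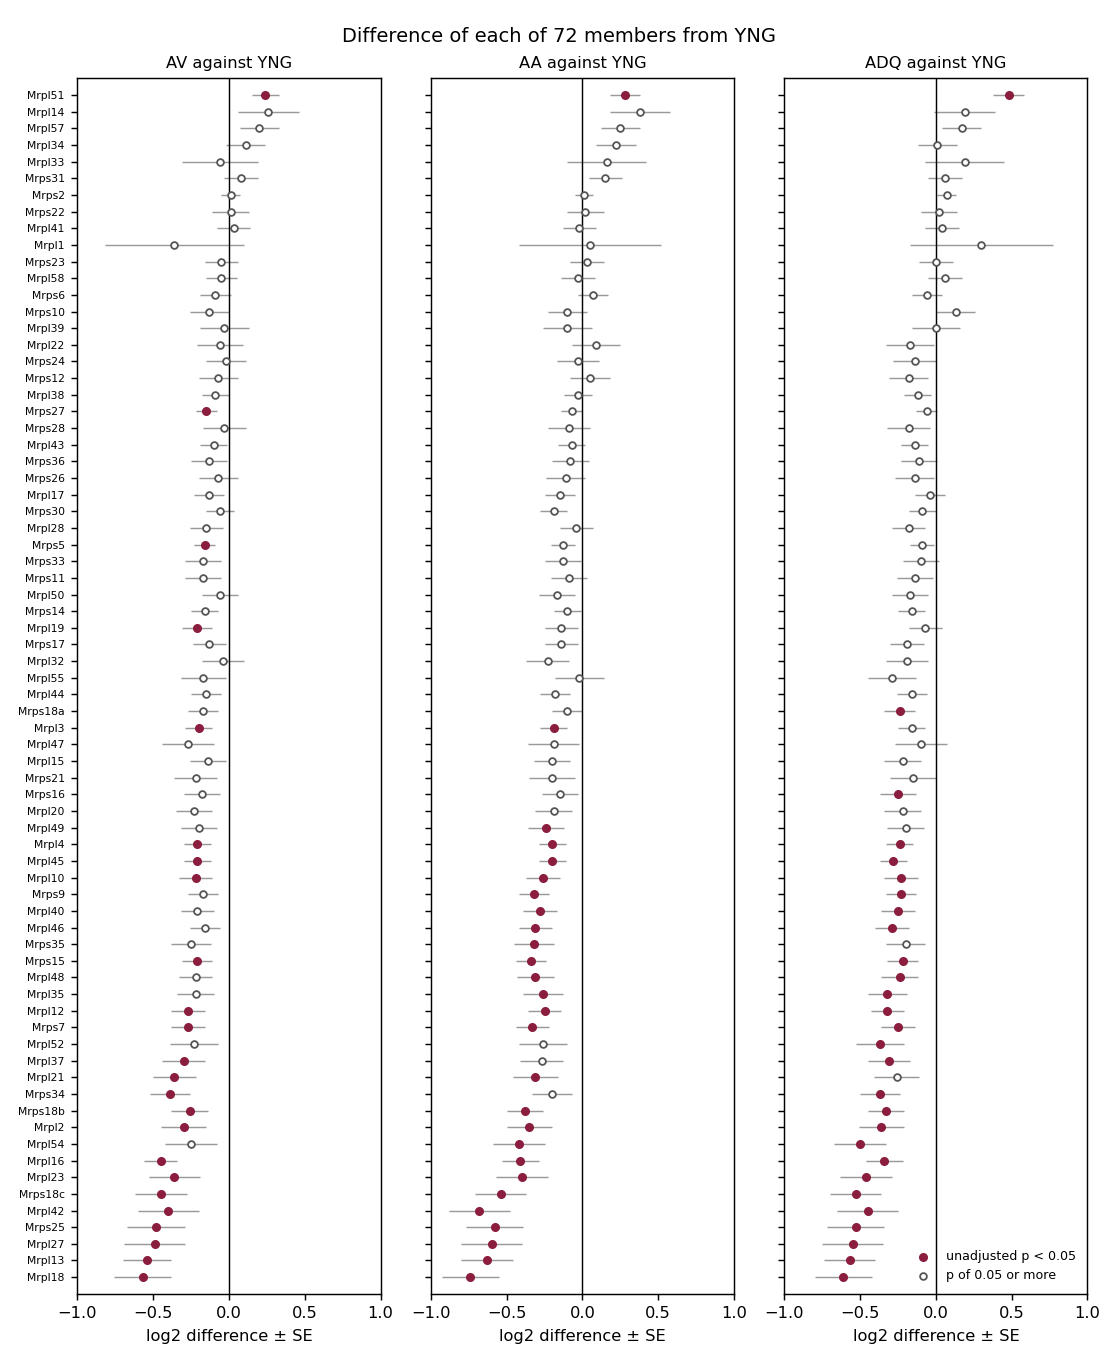
Each row is a member, and each panel gives its log2 difference from YNG with the standard error of the fit, in AV, AA and ADQ. Filled points passed an unadjusted p of 0.05 in limma (24, 27 and 28 of 72), and most points of all 3 panels lie to the left of 0, with Mrpl18 at the bottom and Mrpl51 at the top of the order.

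The scaling of the libraries bears on these counts. YNG libraries had a higher total of normalized values (median 16660960) than AV (15537154), AA (15470836) and ADQ (15376067). When every library was scaled to the same total, the median of all genes moved up by 0.10 (AV), 0.148 (AA) and 0.145 (ADQ) on the log2 scale. The member medians were then -0.0662, -0.0293 and -0.0384, still below 0. Relative to the medians of all genes they were -0.166, -0.177 and -0.183. Called were 7 members lower and 2 higher in AV, 9 lower and 7 higher in AA, and 7 lower and 4 higher in ADQ. The share of all genes called under this scaling is not given here, so these counts have no baseline. The total scaling shifts all genes of a library alike, so it changes the counts of called members and not their position relative to other genes.

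Both subunits lay below 0. The median difference of the 43 large-subunit members was -0.207 (AV), -0.197 (AA) and -0.221 (ADQ), with 15, 19 and 18 lower and 1 higher in each. For the 29 small-subunit members it was -0.155, -0.114 and -0.153, with 8, 7 and 9 lower and none higher. The 39 members numbered after a bacterial protein had medians of -0.203, -0.191 and -0.22, and the 33 others -0.148, -0.128 and -0.139. None of these differences between classes was tested. Several rows are given for 16 members, among which their reads were divided. Their medians were -0.136, -0.0919 and -0.0996, against -0.188, -0.193 and -0.211 for the 56 members with 1 row.

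Among large-subunit members that have a bacterial counterpart, Mrpl18 had the lowest mean difference from YNG over the 3 older groups. The bacterial counterpart of Mrpl18 binds the small ribosomal RNA of the central protuberance. Its normalized values (lowest, median and highest rat) were 416, 766 and 977 in YNG, 238, 407 and 1152 in AV, 252, 374 and 648 in AA, and 353, 437 and 536 in ADQ. The medians of the older groups were well below that of YNG, yet all ranges overlapped, and 2 AV rats (4567 at 983 and 4572 at 1152) exceeded every young rat. Mrpl18 fell by 0.57 ± 0.19 (SE), 0.74 ± 0.19 and 0.61 ± 0.19 in the AV, AA and ADQ groups on the log2 scale, with limma adjusted p of 0.0899, 0.0331 and 0.0467. In linear terms the changes were -32.7%, -40.1% and -34.3%.

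Mrpl13, the counterpart of a core protein of the bacterial large subunit, behaved likewise. It lay at 237, 513 and 696 in YNG, 215, 279 and 582 in AV, 196, 314 and 465 in AA, and 251, 327 and 390 in ADQ. Of the YNG rats, V5 (385) and V10 (367) lay inside all 3 older ranges. V6 (426) and V9 (440) lay inside those of AV and AA and above that of ADQ. V11 (237) lay inside those of AV and AA and below that of ADQ. The other 5 of the 10 (V1 to V4 and V12, 585 to 696) lay above the highest AV, AA and ADQ rats. It fell by 0.54 ± 0.16, 0.63 ± 0.17 and 0.57 ± 0.17, with limma adjusted p of 0.0638, 0.0331 and 0.0316.

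Mrpl16, another counterpart of a bacterial protein, varied less between rats. Its values were 261, 372 and 453 in YNG, 196, 249 and 448 in AV, 231, 276 and 344 in AA, and 237, 296 and 343 in ADQ. In the AV group, 4567 (448) and 4572 (429) again lay near the top of the young range and the remaining AV rats at or below 338. Mrpl16 fell by 0.45 ± 0.11, 0.41 ± 0.12 and 0.34 ± 0.12, with limma adjusted p of 0.0236, 0.0409 and 0.0583. The unadjusted calls of Mrpl18, Mrpl13 and Mrpl16 in all 3 comparisons held whichever rat was left out. Within series b the Mrpl13 median was 404 in YNG and 338, 320 and 328 in AV, AA and ADQ. That of Mrpl16 was 364 in YNG and 306, 292 and 306 in the older groups. Of the 58 calls of named genes, 53 were lost within series b. Without the 10 rats that stood apart for Mrpl14, Mrpl18 was at -0.34 ± 0.18 in AV (p = 0.0735 in limma) and its other calls held.

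**Figure D3:**
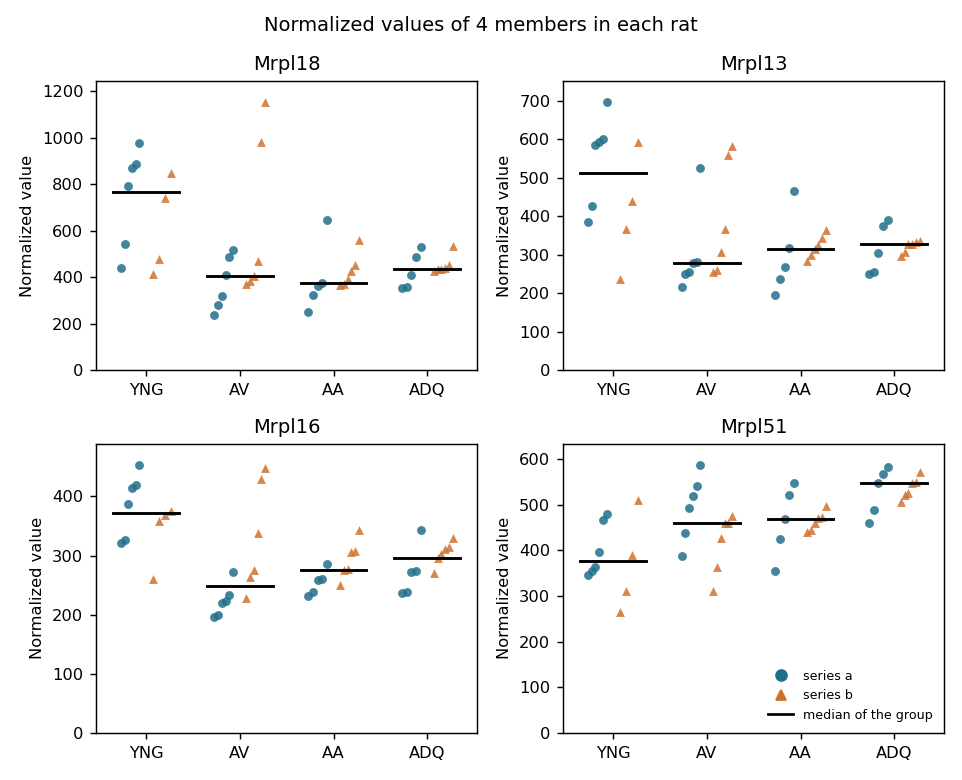
Normalized values on linear axes from 0 for Mrpl18, Mrpl13, Mrpl16 and Mrpl51, with 1 point per rat (circles for series a, triangles for series b) and a line at the group median. For the first 3 genes the YNG median (766, 513 and 372) lies above the older medians and the 2 highest AV rats are the triangles 4567 and 4572, whereas for Mrpl51 the ADQ rats (461 to 583) lie highest.

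Mrpl45 sits at the exit of the ribosomal tunnel, where it holds the ribosome to the inner membrane. Its values were 432, 529 and 601 in YNG and 313, 444 and 516 in ADQ, with AV (354, 437 and 646) and AA (360, 462 and 552) in between or wider. It fell by 0.28 ± 0.09 in ADQ (limma adjusted p = 0.0457), by 0.21 ± 0.09 in AV (adjusted p = 0.168) and by 0.20 ± 0.09 in AA (adjusted p = 0.146). Within series b its difference in AV was 0.03. The call in AV was lost without rat 3999, and that in AA without V1, V3, V4, V12, 3996 or 4077.

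The stalk of the large subunit recruits translation factors. Mrpl12, its repeated protein, which also binds the mitochondrial RNA polymerase, lay at 686, 1048 and 1375 in YNG, 697, 858 and 1024 in AV, 636, 876 and 1217 in AA, and 548, 836 and 1049 in ADQ. It fell by 0.27 ± 0.11, 0.25 ± 0.11 and 0.32 ± 0.11, with limma adjusted p of 0.156, 0.15 and 0.0668. Mrpl10, which anchors the stalk, fell by 0.22 ± 0.11, 0.26 ± 0.11 and 0.23 ± 0.11, with adjusted p of 0.213, 0.112 and 0.152. The call of Mrpl12 in AV was lost without V3 and that in AA without any of 8 rats taken singly (V1, V2, V3, V9, 3984, 3988, 3996 or 4069). That of Mrpl10 was lost without any of 12 rats in AV and without any of 8 in ADQ. Both genes turned in direction within series b, where Mrpl12 was at 0.07 in AV and 0.06 in AA and Mrpl10 at 0.18, 0.10 and 0.15.

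The core proteins Mrpl3 and Mrpl4, whose bacterial counterparts reach toward the peptidyl transferase center and the tunnel, were also called in part. Mrpl3 fell by 0.20 ± 0.09 in AV and by 0.19 ± 0.09 in AA, and its difference in ADQ was -0.16 ± 0.09 (limma adjusted p = 0.178, 0.164 and 0.232). Mrpl4 fell by 0.21 ± 0.09, 0.20 ± 0.09 and 0.24 ± 0.09 (adjusted p = 0.171, 0.154 and 0.0903). Removing V1, V2, V3 or 3999 ended the call of Mrpl3 in AV, and V3, V4 or 3999 that of Mrpl4. In AA the calls were lost without any of 10 and 9 rats. Within series b, Mrpl3 was at 0.06 in AV and 0.03 in AA, and Mrpl4 at 0.08, 0.01 and 0.06.

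Other large-subunit members named by role did not pass. Mrpl17, which has the highest mean, was at -0.13 ± 0.10, -0.15 ± 0.10 and -0.04 ± 0.10, and Mrpl33, which has the lowest, at -0.06 ± 0.25, 0.16 ± 0.26 and 0.19 ± 0.26. Mrpl44, a protein with a ribonuclease III fold, was at -0.15 ± 0.10, -0.18 ± 0.10 and -0.16 ± 0.10, and Mrpl41 at 0.03 ± 0.11, -0.02 ± 0.11 and 0.04 ± 0.11. Mrps30 and Mrps18a are counted with the small subunit here by their symbols, although structures place both in the large subunit. Mrps30 was at -0.06 ± 0.09, -0.19 ± 0.09 and -0.09 ± 0.09 and was not called. Mrps18a fell in ADQ (-0.24 ± 0.10, limma adjusted p = 0.107), a call lost without V3, and was at -0.17 ± 0.10 in AV and -0.10 ± 0.10 in AA.

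The paralogs Mrps18a, Mrps18b and Mrps18c are related in sequence and occupy different places on the ribosome. Mrps18c, the closest to the bacterial form, had values of 162, 315 and 400 in YNG, 143, 178 and 454 in AV, 160, 179 and 342 in AA, and 154, 205 and 238 in ADQ. The middle rat of each older group was near the lower end of the young range, and every range overlapped the young one. Mrps18c fell by 0.45 ± 0.17, 0.54 ± 0.17 and 0.53 ± 0.17 in AV, AA and ADQ, with limma adjusted p of 0.123, 0.0547 and 0.0474. Mrps18b, whose reads were divided among 6 rows, fell by 0.26 ± 0.12, 0.38 ± 0.12 and 0.33 ± 0.12 (adjusted p = 0.192, 0.0591 and 0.0782). Its call in AV was lost without any of 9 rats taken singly and also when the highest of its rows stood for the gene (-0.24), and within series b the difference in AV was 0.15.

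Of the small-subunit members named by role, Mrps34, which is needed for a stable small subunit, lay at 360, 634 and 960 in YNG, 334, 492 and 661 in AV, 348, 547 and 857 in AA, and 390, 474 and 595 in ADQ. It fell by 0.39 ± 0.13 in AV and by 0.37 ± 0.13 in ADQ (limma adjusted p = 0.0843 and 0.0611), and was at -0.20 ± 0.13 in AA (adjusted p = 0.32). The highest ADQ rat (595) lay below the YNG median. Within series b the difference in AV was 0.06 (p = 0.643 in limma). The difference between AA and AV was 0.19 ± 0.12 and did not pass (p = 0.126, adjusted p = 0.999), so the older groups were not shown to differ for this gene.

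Mrps15, a binder of the small-subunit ribosomal RNA, fell by 0.21 ± 0.10, 0.34 ± 0.10 and 0.22 ± 0.10, with limma adjusted p of 0.199, 0.0429 and 0.132. Its values were 388, 562 and 635 in YNG and 290, 403 and 518 in AA, and the call in AA held whichever rat was left out, while those in AV and ADQ were lost without any of 11 and 6 rats. Mrps9, another counterpart of a bacterial protein, fell in AA by 0.32 ± 0.10 (adjusted p = 0.0514) and in ADQ by 0.23 ± 0.10 (adjusted p = 0.117), and was at -0.17 ± 0.10 in AV (p = 0.0771). Mrps16 fell in ADQ alone by the threshold (-0.25 ± 0.12, adjusted p = 0.168), a call lost without any of 12 rats, and was at -0.18 ± 0.12 in AV and -0.15 ± 0.12 in AA. Mrps5 fell in AV (-0.16 ± 0.07, adjusted p = 0.213), a call lost without any of 10 rats, and was at -0.13 ± 0.08 and -0.09 ± 0.08 in AA and ADQ.

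Several small-subunit members were not called in any comparison with YNG. Mrps2, the counterpart of a bacterial protein of the small subunit, varied least of all members within groups, with values of 733 to 894 in YNG, 710 to 918 in AV, 750 to 999 in AA and 767 to 981 in ADQ. Its differences were 0.01 ± 0.06, 0.01 ± 0.06 and 0.07 ± 0.06. Mrps22, mutated in some human deficiencies of oxidative phosphorylation, was at 0.01 ± 0.12, 0.02 ± 0.12 and 0.02 ± 0.12. Mrps12, a protein of the decoding center, was at -0.07 ± 0.13, 0.05 ± 0.13 and -0.18 ± 0.13. Mrps36 matches the rule by its symbol but is known as a component of the oxoglutarate dehydrogenase complex, and was at -0.13 ± 0.12, -0.08 ± 0.12 and -0.11 ± 0.12. Mrps6 was at -0.09 ± 0.10, 0.07 ± 0.10 and -0.06 ± 0.10, and Mrps10 at -0.13 ± 0.13, -0.10 ± 0.13 and 0.13 ± 0.13. With a scaling to equal totals, Mrps2 was called higher in AA (0.15) and ADQ (0.21).

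The rule for named genes leaves out 3 members that fell in every comparison with YNG and are described because of their values. Mrpl27, the counterpart of a bacterial protein that reaches the peptidyl transferase center, fell by 0.49 ± 0.20, 0.60 ± 0.20 and 0.55 ± 0.20, and Mrps25 by 0.48 ± 0.19, 0.58 ± 0.19 and 0.53 ± 0.19. Mrpl42 fell by 0.40 ± 0.20, 0.68 ± 0.20 and 0.45 ± 0.20. Of the 9 adjusted p of these 3 members in limma, that of Mrpl42 in AA (0.049) alone was below 0.05.

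Some of the 10 rats that stood apart for Mrpl14 were also low for these 3 genes. Mrps25 lay at 377, 634 and 805 in YNG, 175, 458 and 776 in AV, 194, 446 and 633 in AA, and 346, 433 and 469 in ADQ. The lowest AV and AA rats were 4009 (175), 3983 (194) and 4011 (199), all among the 10. The other AV rat of the 10, 4010, lay at 348, and the 9 AV rats outside the 10 lay between 429 and 776. Mrpl27 lay at 349, 846 and 1074 in YNG, 213, 496 and 1119 in AV, 265, 503 and 667 in AA, and 382, 491 and 603 in ADQ, with 4009 (213), 3983 (265) and 4011 (272) lowest. Without the 10 rats, Mrps25 was at -0.18 ± 0.13 in AV (p = 0.155 in limma), Mrpl27 at -0.20 ± 0.18 (p = 0.263) and Mrpl42 at -0.17 ± 0.21 (p = 0.422), so their calls in AV were lost. The calls in AA and ADQ held, with Mrps25 at -0.32 ± 0.13 and -0.52 ± 0.13. Within series b none of the differences of Mrps25 (0.06, -0.09 and -0.25) and Mrpl27 (0.18, -0.16 and -0.19) passed.

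Over all 72 members the differences from YNG reached from -0.57 to 0.26 (AV), from -0.74 to 0.38 (AA) and from -0.61 to 0.48 (ADQ). Mrpl18 was lowest each time. Mrpl14, a core protein of the large subunit with a bacterial counterpart, was highest in the first 2 (0.26 ± 0.20 and 0.38 ± 0.20) without passing the threshold (p = 0.193 and 0.06 in limma). Its median was 495 in YNG and 502, 617 and 476 in the AV, AA and ADQ groups, and all of its values above 641 were those of the 10 rats. Its reads were divided between 2 rows.

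Mrpl51, a protein of the large subunit that bacteria lack, was the only member called higher than YNG in any of the 3 comparisons. Its values were 264, 376 and 510 in YNG, 312, 460 and 587 in AV, 354, 470 and 547 in AA, and 461, 547 and 583 in ADQ. The lowest ADQ rat (461) lay above 7 of the 10 young rats and above the AV median. Mrpl51 rose by 0.24 ± 0.09 (AV), 0.28 ± 0.10 (AA) and 0.48 ± 0.10 (ADQ), with limma adjusted p of 0.145, 0.0711 and 0.00558. The call in AV was lost without V9 (p = 0.0562). As given above, it was also the member whose level within groups went most against that of the others.

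Mrpl51 was the member with the lowest p in both comparisons of ADQ with another older group. It was 0.25 ± 0.09 higher in ADQ than in AV (p = 0.00989, limma adjusted p = 0.399) and 0.21 ± 0.09 lower in AA than in ADQ (p = 0.032, adjusted p = 0.981). The latter call was lost without rat 3985 (p = 0.0766) or 4005 (p = 0.0506). Between AA and AV its difference was 0.04 ± 0.09. Neither call of Mrpl51 among the older groups passed the adjusted p.

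The other question of the design is whether either treatment moved the older DG. With all rats, few members were called between treated and vehicle rats. For AA against AV, 0 of 72 members passed the unadjusted threshold in limma, where 1.40% of all genes were higher and 3.10% lower, and 0 passed the adjusted one. The median difference was 0.00867, against 0.00093 over all genes. The smallest p belonged to Mrps6 (0.15 ± 0.10, p = 0.121) and Mrps9 (-0.15 ± 0.09, p = 0.125). Leaving out rat 4009 or 3996 gave 1 called member, and so did leaving out the 10 rats that stood apart for Mrpl14.

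For ADQ against AV, 2 members were higher, where 3.42% of all genes were, and 0 were lower, where 5.90% of all genes were. The median difference was -0.0271, against 0.00809 over all genes. Besides Mrpl51, Mrps10 passed, with values of 70.2, 86.2 and 111 in AV and 71.9, 101 and 146 in ADQ. Its difference was 0.27 ± 0.13 (p = 0.0407, limma adjusted p = 0.516), its call was lost without any of 10 rats, and the gene has 2 rows among which its reads were divided. Leaving out the 10 rats that stood apart for Mrpl14 gave 11 members (15.3%) lower in ADQ than in AV and 1 higher, where 9.94% of all genes were lower, with a median of -0.148 and 0 members by the adjusted p.

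For AA against ADQ, Mrpl51 alone was lower (1.39% of members, against 2.40% of all genes) and 0 members were higher (against 2.13%), with a median of -0.0151 against -0.00315. Without rat 3996, 4 members were higher and 1 lower, and without 3994, 2 were higher and 1 lower. Without the 10 rats, 2 members were higher and 0 lower. The shares of all genes in these settings are not given here. The comparisons of AA and ADQ with AV share its 12 rats.

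The differences from YNG were not equal in the 2 series of rat numbers. Within series a, 41 members (56.9%) were lower in AV than in YNG, where 18.3% of all genes were, 34 (47.2%) in AA, where 16.1% were, and 30 (41.7%) in ADQ, where 15.1% were. The medians were -0.363, -0.319 and -0.269, and 29, 15 and 12 members were lower by the limma adjusted p. Within series b, 0 members were lower in AV, where 2.54% of all genes were, 1 in AA, where 5.17% were, and 2 in ADQ, where 2.57% were. There the medians were 0.103, 0.00457 and -0.0486, against 0.0227, 0.0104 and 0.0165 over all genes. In that series 2, 7 and 2 members were higher, counts for which the share of all genes is not given here. Of the members lower in series a, 10 of 41, 20 of 34 and 23 of 30 had a difference below 0 in series b as well.

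This inequality was tested for each gene as the interaction of group and series in limma, a fit added after the data were seen. It passed an unadjusted p of 0.05 in 35 members for AV (48.6%), 22 for AA (30.6%) and 9 for ADQ (12.5%), where 21.8%, 17.3% and 8.89% of all genes passed. In every one of these cases the difference was higher in series b. The median interaction over the members was 0.483, 0.323 and 0.259, and 12, 2 and 0 members passed the adjusted p. Mrpl10 had an interaction of 0.72 ± 0.16 (AV), 0.68 ± 0.17 (AA) and 0.72 ± 0.17 (ADQ), with limma adjusted p of 0.0117, 0.0236 and 0.0751. Its differences from YNG were -0.54, -0.58 and -0.56 within series a and 0.18, 0.10 and 0.15 within series b.

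**Figure D4:**
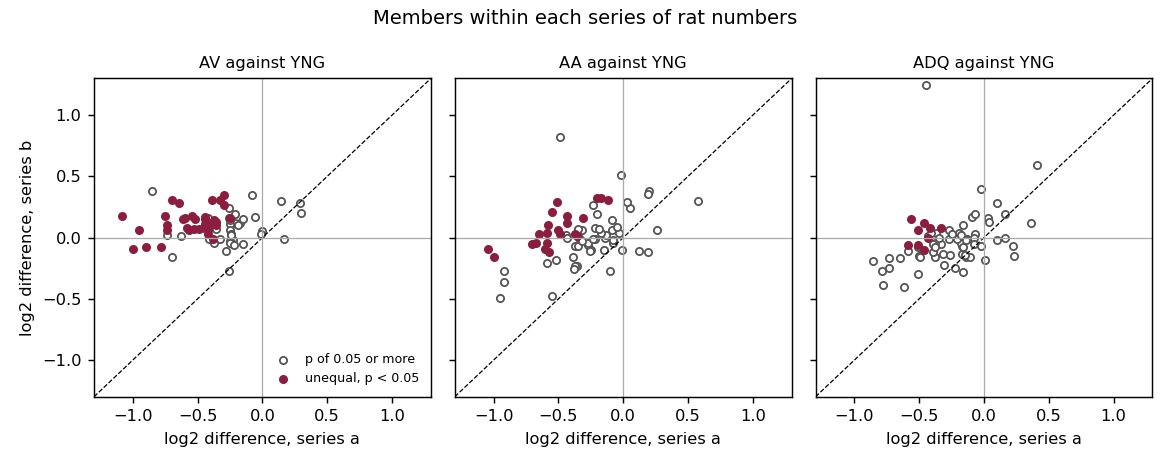
Each point is a member, with its log2 difference from YNG within series a on the x axis and within series b on the y axis, for AV, AA and ADQ. Filled points have an unadjusted p below 0.05 for the inequality (35, 22 and 9 of 72), and they lie above the dashed line of equality, mostly left of 0 in series a and near 0 in series b.

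The levels behind these differences were as follows in each series. The level of the members in YNG was 8.46, 8.83 and 8.92 in series a (lowest, median and highest of 6 rats) and 8.15, 8.49 and 8.68 in series b (4 rats). In AV it was 8.20, 8.30 and 8.63 in series a and 8.27, 8.50 and 8.86 in series b. The other groups were closer, with medians of 8.39 and 8.46 in AA and 8.53 and 8.46 in ADQ. Mrpl18, for example, had YNG medians of 831 in series a and 608 in series b, and AV medians of 365 and 437. Its difference from YNG was -1.0 (AV), -0.95 (AA) and -0.78 (ADQ) in series a and -0.09, -0.49 and -0.39 in series b, where none passed. Series b has only 4 young rats, which limits the precision of its differences.

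Mrpl51 had differences above 0 in both series. Its difference from YNG was 0.30, 0.20 and 0.41 in series a and 0.20, 0.38 and 0.59 in series b, and its interactions were -0.09 ± 0.19, 0.17 ± 0.19 and 0.18 ± 0.19 (limma adjusted p = 0.801, 0.685 and 0.838). With series as a covariate in the fit of all rats, the counts against YNG were 24 lower and 1 higher in AV, 25 and 2 in AA, and 27 and 1 in ADQ, close to those without it. Among the older groups the values by series were also unlike, a difference that was not tested and that in series b cannot be told apart from the number block. Against AV, the median of the members in ADQ was 0.102 in series a and -0.146 in series b, against 0.0155 and -0.0104 over all genes. Called were 5 members higher and 0 lower in series a, and 1 higher and 4 lower in series b. The share of all genes called in this comparison within a series is not given here.

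The members were set beside 3 related gene lists. The 86 cytosolic ribosomal protein genes had medians of -0.436, -0.589 and -0.619 in AV, AA and ADQ, with 35, 63 and 67 lower than YNG. The 82 nuclear genes of the respiratory chain and ATP synthase had medians of -0.289, -0.327 and -0.347, with 42, 49 and 51 lower. The 13 mitochondrially encoded genes, which are the templates of this ribosome, had medians of -0.305, -0.666 and -0.611, with 3, 11 and 9 lower. The members' medians (-0.169, -0.178 and -0.179) were thus closer to 0 than those of all 3 sets, a comparison that was not tested. Against AV, the mitochondrially encoded genes had medians of -0.248 in AA and -0.288 in ADQ with 0 of 13 called by the unadjusted or the adjusted p in limma.

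**Figure D5:**
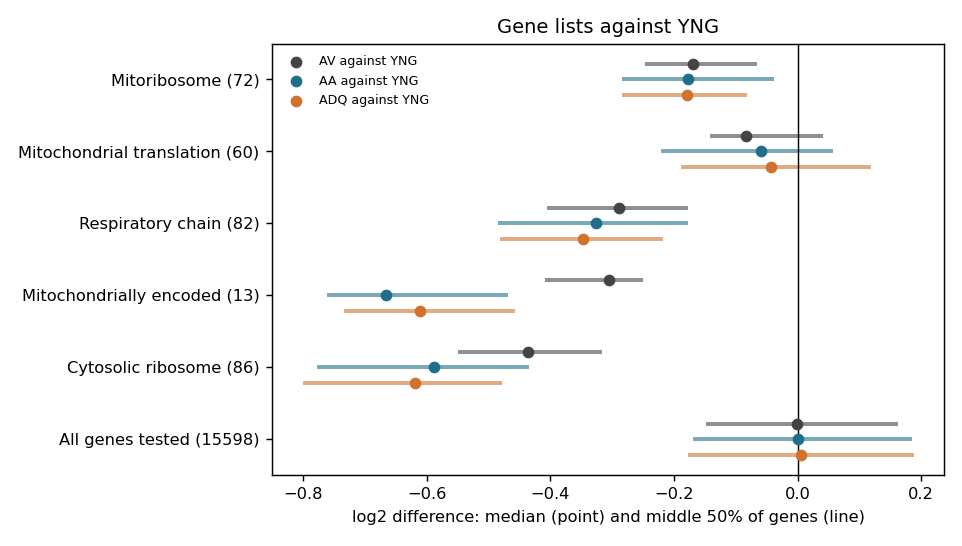
Median log2 difference from YNG (points) and the middle 50% of the genes (lines) for 6 gene lists in AV, AA and ADQ. The members (-0.169, -0.178 and -0.179) lie between all genes tested, near 0, and the cytosolic ribosomal protein genes (-0.436, -0.589 and -0.619).

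Other genes of mitochondrial translation were taken as a list of 61, of which 60 were tested. The list covers ribosomal proteins under other symbols, translation factors, assembly and ribosomal RNA modification factors, transcription and messenger factors, and mitochondrial aminoacyl-tRNA synthetases. Of the 60, 7 fell and 0 rose in AV, 15 fell and 4 rose in AA, and 9 fell and 3 rose in ADQ. The medians were -0.084, -0.0592 and -0.0426, closer to 0 than those of the members. The share that fell can be read against 10.7%, 14.1% and 14.6% of all genes.

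The 20 assembly and modification factors had the lowest medians of the 5 classes, with -0.174 and -0.172 in AA and ADQ, with 8 and 5 lower, and -0.123 with 3 lower in AV. Mrm2, a methyltransferase of the large ribosomal RNA, had values of 104, 189 and 295 in YNG, 87.4, 130 and 334 in AV, 86.8, 118 and 151 in AA, and 78.4, 120 and 143 in ADQ. Every AA and ADQ rat lay below the YNG median. It fell by 0.58 ± 0.18 in AA and 0.66 ± 0.18 in ADQ (limma adjusted p = 0.0494 and 0.0231) and was at -0.34 ± 0.17 in AV (p = 0.0541, adjusted p = 0.244). Mtg1 and Mtg2, GTPases of large-subunit assembly, fell by 0.26 ± 0.09 and 0.25 ± 0.09 in AV (limma adjusted p = 0.113 and 0.114) and by 0.27 ± 0.10 and 0.21 ± 0.09 in AA (0.0763 and 0.13). In ADQ Mtg2 fell by 0.23 ± 0.09 (adjusted p = 0.102) and Mtg1 was at -0.18 ± 0.10 (0.203).

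The 11 translation factors had medians of -0.0259, 0.00782 and -0.0505, and the 17 synthetases 0.0356, 0.053 and 0.105. Within the synthetases, whose median was above 0, Pars2 (proline) fell by 0.28 ± 0.12, 0.43 ± 0.12 and 0.28 ± 0.12, with limma adjusted p of 0.169, 0.0424 and 0.132. Fars2 (phenylalanine) fell by 0.31 ± 0.13, 0.42 ± 0.13 and 0.38 ± 0.13, with adjusted p of 0.156, 0.0503 and 0.0573. The call of Pars2 in AV was lost without V1 or V4 and that in ADQ without V1 to V4 or 4006, and the call of Mtg2 in AA was lost without 3988 or 3996. Within series b, Pars2 was at 0.13 in AV and 0.02 in ADQ, and Mtg2 at 0.07 in both AV and AA.

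Some cell markers were called against YNG as well, where 10.6% to 13.5% of all genes rose and 10.7% to 14.6% fell. A single call in so short a list is not read as a change. Of 5 oligodendrocyte markers, 4 rose relative to YNG in AV, 3 in AA and only 1 in ADQ, and their mean log2 level ranged from 11.65 to 12.89 in YNG, 12.04 to 13.45 in AV, 11.91 to 13.39 in AA and 12.14 to 12.49 in ADQ. Of 3 endothelial markers tested, all 3 rose in AV and 1 in each treated group, with ranges of 8.35 to 10.17, 9.21 to 11.13, 9.21 to 9.86 and 9.20 to 9.55. Of 5 general neuronal markers, 2 fell and 1 rose in AV, 2 fell in AA, and 1 fell and 1 rose in ADQ, with ranges of 12.93 to 13.42, 12.86 to 13.53, 12.86 to 13.33 and 13.06 to 13.57. Of 5 astrocyte markers, 2 rose in AV and 1 fell in ADQ, and of 5 microglial markers 1 rose in AV and 1 fell in ADQ. Of the 5 dentate granule markers tested, 1 fell in AA and 1 in ADQ, and of 5 markers of CA3 and mossy cells 1 fell in AV and 1 in AA. Of 5 immediate early genes, 3 rose in AA, with a median difference of 0.43 there. No marker of CA1, choroid plexus or red blood cells was called against YNG. The part of these cell types and genes in the differences of the members was not tested.

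Sequences upstream of the members were read from RefSeq on the GRCr8 build, which is not the build to which the authors aligned. Windows of 250 bases before to 50 after the start were given for 57 of the 72 members. The following 4 motifs known from promoters of nuclear genes for mitochondrial proteins were searched on both strands. The core of NRF1 (GCGCATGC) was in 5 windows (8.8%), against 4.7% of 10908 tested genes with a window and 2.5% of all 33469. The ETS motif bound by GABP (CCGGAAGT) was in 7 (12.3%, against 7.4% and 3.8%), the YY1 motif (ATGGCGGC) in 12 (21.1%, against 5.4% and 2.5%) and the cyclic AMP response element (TGACGTCA) in 1 (1.8%, against 3.0% and 1.8%). All 12 YY1 matches lay after the start, at 3 to 41 bases. The letters of this motif begin with ATG, and whether these matches are the first codons of the coding sequence was not tested. In all, 23 windows held at least 1 motif and 34 held none. A match is a run of letters, not a bound site.

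The stretches from 200 bases before the start to 30 after it are shown for 6 members, with any motif in capitals. Mrpl18, Mrpl27 and Mrps18c are shown because they fell in all 3 older groups, Mrpl17 and Mrps30 because they hold NRF1 and YY1 motifs and were not called, and Mrpl51 because it rose.
Mrpl18 (chr1:50384752-50384981, plus strand): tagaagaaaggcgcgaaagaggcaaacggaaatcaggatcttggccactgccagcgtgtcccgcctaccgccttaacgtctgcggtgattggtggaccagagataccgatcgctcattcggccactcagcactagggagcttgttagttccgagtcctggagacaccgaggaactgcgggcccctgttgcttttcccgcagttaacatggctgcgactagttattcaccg
Mrpl27 (chr10:80092145-80092374, plus strand): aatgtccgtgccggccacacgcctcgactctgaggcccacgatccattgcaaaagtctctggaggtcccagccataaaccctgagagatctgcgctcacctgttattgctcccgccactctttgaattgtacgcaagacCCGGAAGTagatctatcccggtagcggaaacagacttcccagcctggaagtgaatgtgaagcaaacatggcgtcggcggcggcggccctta
Mrps18c (chr14:9122877-9123106, minus strand): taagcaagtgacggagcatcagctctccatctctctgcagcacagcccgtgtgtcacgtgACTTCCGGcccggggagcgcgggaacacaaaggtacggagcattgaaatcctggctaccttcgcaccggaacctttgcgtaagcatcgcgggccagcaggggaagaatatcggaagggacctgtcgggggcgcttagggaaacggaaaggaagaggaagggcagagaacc
Mrpl17 (chr1:169575670-169575899, minus strand): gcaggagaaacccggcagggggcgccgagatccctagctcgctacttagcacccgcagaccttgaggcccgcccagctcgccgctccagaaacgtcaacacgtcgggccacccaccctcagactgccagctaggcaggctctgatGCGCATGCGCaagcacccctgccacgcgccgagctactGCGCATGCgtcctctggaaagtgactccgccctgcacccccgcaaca
Mrps30 (chr2:52195875-52196104, minus strand): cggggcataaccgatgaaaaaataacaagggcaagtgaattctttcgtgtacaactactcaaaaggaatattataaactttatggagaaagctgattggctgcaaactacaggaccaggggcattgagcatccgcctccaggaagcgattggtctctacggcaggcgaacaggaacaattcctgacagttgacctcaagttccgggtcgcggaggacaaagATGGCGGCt
Mrpl51 (chr4:159677788-159678017, plus strand): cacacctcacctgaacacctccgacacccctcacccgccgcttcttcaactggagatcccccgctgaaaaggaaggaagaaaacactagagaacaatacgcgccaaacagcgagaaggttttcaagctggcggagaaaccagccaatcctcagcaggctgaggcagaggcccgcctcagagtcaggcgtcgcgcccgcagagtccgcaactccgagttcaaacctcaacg
In Mrpl27 the ETS motif starts 61 bases before the start and in Mrps18c, on the other strand, 140 before it. Mrpl17 holds the NRF1 core 3 times, of which the pair at 55 and 53 bases before the start overlaps on opposite strands. Mrps30 holds the YY1 motif 21 bases after the start, and neither Mrpl18 nor Mrpl51 holds any of the 4 motifs in its window.

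Several members start close to a gene on the opposite strand, a property looked for after the differences were known. A start on the opposite strand lay within 1000 bases upstream, or overlapped by up to 250, for 18 of the 57 members with a window (31.6%) and for 1783 of the 10908 tested genes (16.3%). Mrpl18 starts 425 bases from Tcp1, a subunit of the cytosolic chaperonin, which fell by 0.42, 0.52 and 0.39 in AV, AA and ADQ (unadjusted p = 0.00885, 0.00165 and 0.0168 in limma). Mrpl47 starts 244 bases from Ndufb5, a subunit of respiratory complex I, which fell by 0.45, 0.55 and 0.42, while Mrpl47 itself was at -0.27, -0.19 and -0.10. Mrpl49 starts 186 bases from Fau, which encodes a cytosolic ribosomal protein and fell by 0.53, 0.69 and 0.84.

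The 13 tested partners that are not members had medians of -0.11, -0.11 and -0.16. Of these, 3, 4 and 5 fell and 0, 1 and 1 rose in AV, AA and ADQ. Among all genes tested, 10.7%, 14.1% and 14.6% fell and 10.6%, 12.6% and 13.5% rose. Helq, 72 bases from Mrps18c, was at -0.17, -0.09 and -0.16 (p = 0.112, 0.413 and 0.148 in limma). Hira, 186 bases from Mrpl40, rose in AA and ADQ (0.19 and 0.16) where Mrpl40 fell by 0.28 and 0.25. Ncapd2 starts 50 bases from Mrpl51 and was at 0.03, 0.13 and 0.15 with no call. Mrpl46 and Mrps11, both members, start 234 bases apart and were at -0.16, -0.31 and -0.29 and at -0.17, -0.09 and -0.14. The transcripts of Mrpl57 and Ska3 overlap at their starts by 106 bases. The use of strand in the authors' counting is not given in the sources used here, so reads from that overlap cannot be assigned to either gene. Mrpl57 was at 0.2, 0.25 and 0.17 and Ska3 at -0.22, -0.4 and -0.45 in AV, AA and ADQ.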

How the data were processed

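Poly(A)-selected RNA of the DG was sequenced on the Ion platform, 1 library per rat. According to the study's methods and processing notes, the authors aligned reads to rn6 with STAR 2.5.3a in Partek Flow and scaled them by the median ratio of DESeq2. The table deposited by the authors holds signal values: the reads of each row after division by the size factor of its library. Between 78.6% and 83.8% of low values in a library were whole multiples of a step (tolerance 0.05), so whole reads were not recovered for nearly all genes and no count model was used. No column was left unmatched to a rat (0 columns), and the annotation used for counting is not given in the sources used here.

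The 24694 rows were summed to 18347 gene identifiers, and the 15598 with a mean of at least 5 were taken as log2(value + 1). A common limma 3.58.1 fit (R 4.3.3, the data.table package at version 1.17.8, empirical Bayes with trend) held all 4 groups, without covariates. Tests were two-sided at an unadjusted p of 0.05, with Benjamini-Hochberg adjustment over all genes. Fold changes are on the log2(value + 1) scale and understate changes of low genes. The fit was tested on simulated data. Rats are separate animals. The members, gene lists, motifs and rule for named genes were chosen with earlier results of these data known. The rule named the 3 members with the smallest p in each direction against YNG, the 2 with the smallest p between older groups, the highest and lowest mean, members of set roles, and 2 genes of the translation list per comparison. Alternatives changed the pseudocount, the filter, the scaling, the row used per gene, the rats, the groups fitted and the weights, and 1 setting added later left out 10 rats. Figures were drawn with matplotlib 3.10.9, and tables were made with pandas 2.3.3, numpy 2.4.6 and scipy 1.17.1 under Python 3.11.15.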

Additional observations from a re-analysis of the deposited data

Results flagged for a closer look

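The difference of members from YNG was unequal between series a and series b by the interaction of group and series in limma. This held in 35 of 72 members for AV, 22 for AA and 9 for ADQ (unadjusted p below 0.05), always higher in series b. The pairing of young with older rat numbers in a series was set here. The series are sets of rat numbers and not groups of the study, and what differed between them was not tested.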

How the results depend on the processing

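The median of the members against YNG kept its direction in AV, AA and ADQ under each pseudocount (0.5 and 5), filter, scaling, row choice, covariate, weighting and pair of groups tried, within series a and without the 10 rats. Within series b it was 0.103 (AV), 0.00457 (AA) and -0.0486 (ADQ). The median of ADQ against AV, near 0 with all rats, was -0.146 within series b and 0.102 within series a. The count of called members was less stable. With equal totals it was 9, 16 and 11 against YNG, and 2 in AA against AV and 0 in AA against ADQ. Within series a it was 42 in AV against YNG, 1 in AA against AV, 5 when ADQ was set against AV and, between the treated groups, 2. Within series b it was 2, 8 and 4 against YNG, 2 in AA against AV and 5 in ADQ against AV. With array weights it was 57, 43 and 54 against YNG, 3 and 4 against AV, and 6 in AA against ADQ. Without the 10 rats that stood apart for Mrpl14 it was 10 in AV against YNG, 1 in AA against AV, 12 when ADQ was set against AV and, between the treated groups, 2, a setting chosen after the data were seen. Fits of the 2 groups compared alone gave 14 in AV against YNG and 2 in AA against ADQ, and the highest row per gene gave 1 in ADQ against AV. These counts are not set beside the share of all genes called under each setting. The causes were not tested.

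Leaving out each rat gave 11 to 37 called members (AV), 20 to 34 (AA) and 19 to 37 (ADQ) against YNG, 0 to 1 in AA against AV, 1 to 2 when ADQ was set against AV and, between the treated groups, 1 to 5. The medians ranged from -0.212 to -0.144, -0.212 to -0.134 and -0.243 to -0.143 against YNG.

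Of the called values of named genes, 17 changed sign, all within series b. Against YNG, Mrpl10 was at 0.18, 0.10 and 0.15 in AV, AA and ADQ and Mrpl4 at 0.08, 0.01 and 0.06. Mrpl12 was at 0.07 and 0.06, Mrpl3 at 0.06 and 0.03 and Mtg2 at 0.07 and 0.07 in AV and AA. Pars2 was at 0.13 in AV and 0.02 in ADQ, and in AV alone Mrpl45 was at 0.03, Mrps18b at 0.15 and Mrps34 at 0.06. Of the 58 calls of named genes, 34 were lost with equal totals, 21 without the 10 rats and 53 within series b, the 17 that changed sign included. No paired analysis was possible because the labels give the groups no shared replicate numbers. The library totals (10166556 to 24328425 estimated reads) limit the precision of members of low value such as Mrpl33.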
